A study of Mus musculus with 11 samples.

Results

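The genes described here build the lysosome, acidify it and feed it through autophagy. A list of 43 mouse gene symbols defined the set, and a gene was taken where a probe set named that symbol alone. Of the 43, 42 were measured, among 12393 genes in all, and Cd63 was not analysed here. They fell into 24 soluble proteins of the lysosomal lumen, 5 lysosomal membrane proteins, 5 genes of the proton pump and 8 autophagy genes, and 77 probe sets read them. Each gene was represented by its brightest probe set, and 22 of the 42 had more than 1.

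The lysosome is a membrane-bound compartment in which acid hydrolases break down proteins, glycans and lipids. The vacuolar ATPase (V-ATPase) pumps protons into it, membrane proteins line it and move ions and lipids across its wall, and autophagy delivers cytoplasm to it in double-membraned autophagosomes. Many of these genes carry a short promoter sequence, the CLEAR element, bound by the transcription factor TFEB, and transformed cells are known to secrete lysosomal cathepsins that cut extracellular matrix.

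Messenger RNA was measured on Affymetrix oligonucleotide arrays in 4 groups of mouse JB6 cells, a line from mouse skin used to study growth without attachment. RT101 is a tumor variant of JB6 that received no treatment, sampled as colonies (3 arrays) and as monolayer (2 arrays). The other cells, here called bFGF-JB6, are parental JB6 clone 41-5A under basic fibroblast growth factor (bFGF) treatment, sampled as colonies (3 arrays) and as monolayer (3 arrays). Colonies of both kinds were taken from soft agar on day 7. The labels state 10 ng/ml bFGF for cells in agar and neither dose nor duration for the treated monolayers, and none of the 4 groups was untreated parental JB6. The 2 lines therefore differ both in the cells and in the growth factor, which cannot be told apart. The study set colonies against monolayers of the same line, to see what reversible, growth-factor-driven colony growth and irreversible, tumorigenic colony growth have in common.

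The arrays had log2 medians of 5.82 to 5.95 and lower quartiles of 3.78 to 3.91, below which folds are compressed. Over 22626 probe sets, replicate arrays correlated at 0.989 to 0.998, and pairs from different groups at 0.9345 to 0.983. The Gapdh control read higher at its 3' than at its 5' end on bFGF-JB6 monolayer replicate 1 (0.19) and bFGF-JB6 colonies replicate 3 (0.35), against -0.08 to -0.01 on the other 9 arrays. Whether replicate arrays stand for separate cultures is not in the labels. The p-values therefore measure only how far these arrays spread, and that spread may be technical. Epithelial markers were low in cells of skin origin: 6 of 10, among them Krt14 and Cdh1, lay at or below the lower quartile on all 11 arrays. The mesenchymal marker Vim read about 13 in all 4 groups, with means of 12.9 to 13.2.

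The set as a whole stood higher in colonies than in monolayers of both lines. In RT101, 27 of the 42 genes rose in colonies and 0 fell, where 17.0% of all genes rose and 15.4% fell (limma, Benjamini-Hochberg adjusted p of 0.05 over all genes). In bFGF-JB6 cells 31 of 42 rose and 0 fell, where 14.1% of all genes rose and 15.3% fell. The median change of the 42 was 0.49 in RT101 and 0.61 in bFGF-JB6 on the log2 scale, and that of all genes -0.01 and 0.03. A rise in both comparisons was called for 22 of the 42, or 52.4%, and for 5.70% of all genes. In bulk RNA, a larger share of cells that carry a transcript and more of it per cell cannot be told apart. Summed mesenchymal marker signal, on the linear scale, moved with the same contrast, with sums of 21353 to 22125 in colonies and 13150 to 14045 in monolayers of RT101, and of 20172 to 22270 in colonies and 17623 to 18433 in monolayers of bFGF-JB6. Of the 10 mesenchymal markers, 5 rose and 0 fell in RT101 colonies (median 0.40), and 5 rose and 1 fell in bFGF-JB6 colonies (median 0.26). A linear sum gives most weight to the brightest genes. The part of these markers in the results of the set was not tested.

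Rises were small. Only 2 of the 27 in RT101 (Gabarap and Ppt1) reached 2-fold, where 3.41% of all genes rose that far, and 10 of the 31 in bFGF-JB6 did, where 1.64% of all genes did. Across the 42 genes the size of the change in RT101 said little about its size in bFGF-JB6 (Pearson r 0.128 and Spearman rho 0.207 over 42 genes, against an r of 0.217 over all genes, given as a description). The 9 genes that rose only by the bFGF-JB6 call and the 5 that rose only by the RT101 call (Ppt1, Glb1, Npc2, Ctsl and Atp6v0a1) are described by role below. The remaining 6 were called in neither.

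**Figure D1:**
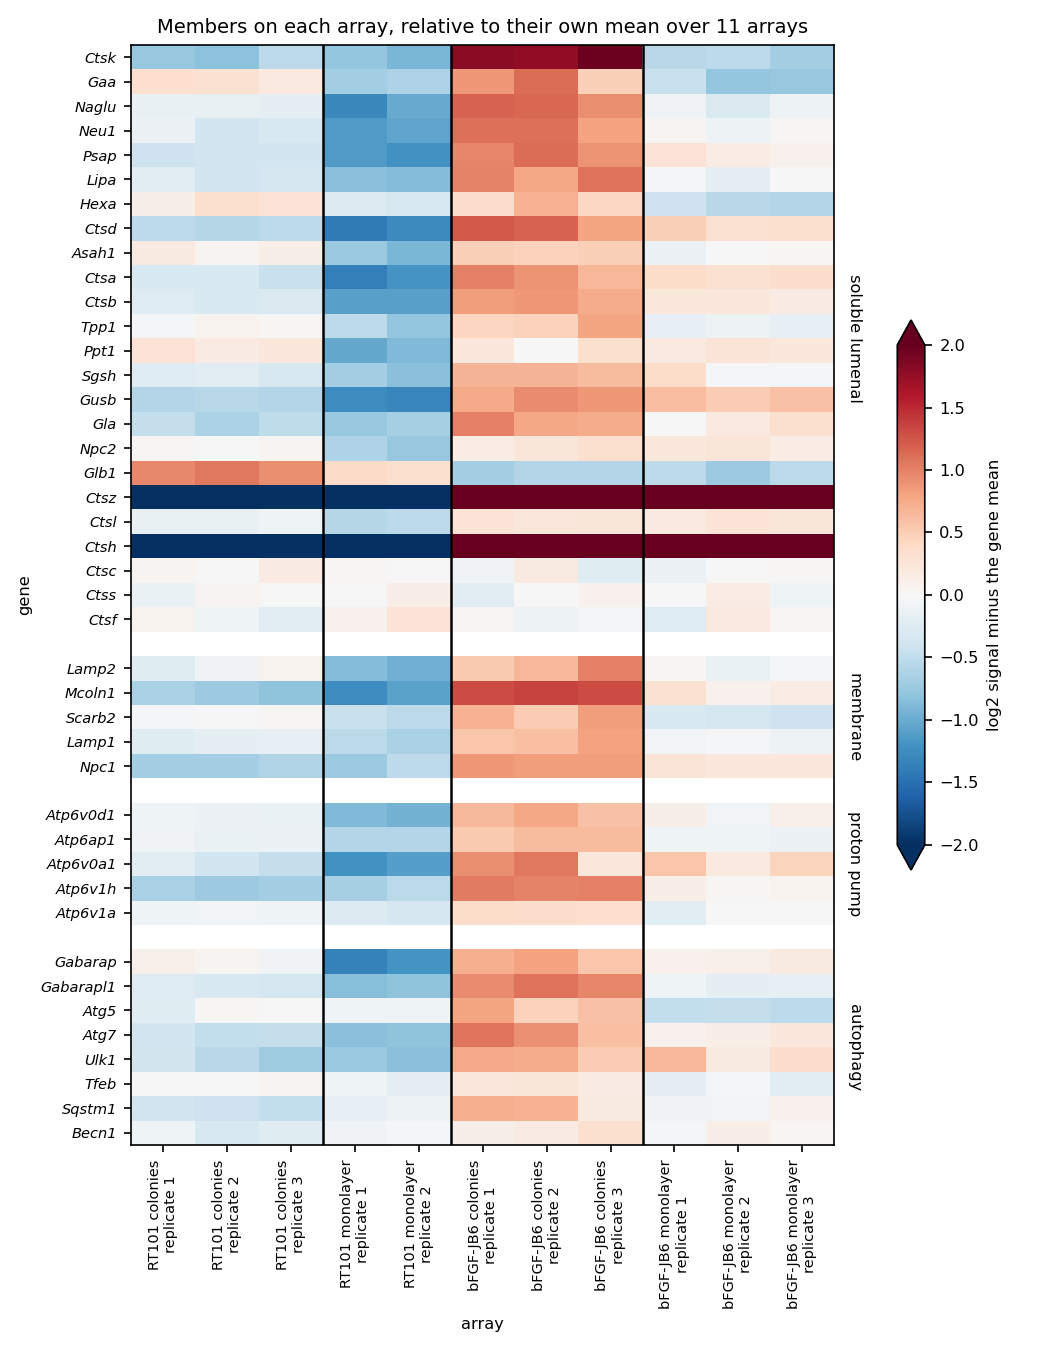
Log2 signal of the 42 genes on each of the 11 arrays, each row centred on its own mean, with arrays grouped as RT101 colonies, RT101 monolayer, bFGF-JB6 colonies and bFGF-JB6 monolayer. The bFGF-JB6 colony columns are the highest for most rows (37 of 42 by group mean) and the RT101 monolayer columns the lowest (31 of 42). The order was not counted over all genes.

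Group means had a common order. The bFGF-JB6 colonies had the highest mean for 37 of the 42 genes and RT101 monolayer the lowest for 31, as the heat map of row-centred signals shows. This order was not counted over all genes, so these counts have no background share beside them. The median signal of the 42 genes on an array was 8.97, 8.98 and 8.98 in RT101 colonies, 8.33 and 8.40 in RT101 monolayer, 9.71, 9.68 and 9.71 in bFGF-JB6 colonies, and 9.11, 8.89 and 8.93 in bFGF-JB6 monolayer. Colonies lay above monolayers of the same line, and RT101 colonies overlapped bFGF-JB6 monolayer, while the array medians over all probe sets lay within 5.82 to 5.95.

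RefSeq promoters, running from 250 bases before to 50 after the start of a gene on build GRCm38.p6, were held for 36 of the 42 genes. They were searched on both strands for CACGTG, the E-box, and for GTCACGTG, the core of the CLEAR element, which contains CACGTG. GTCACGTG stood in 10 of the 36 (27.8%), in 4.05% of the 9887 measured genes with a promoter and in 2.55% of all 27025 genes with one. CACGTG stood in 15 of the 36 (41.7%), in 10.8% and in 8.09% of the same sets. Since many lysosomal genes are known to carry the element, the higher share among the 36 is not a result of these arrays. The windows below come from 6 lumenal, membrane and pump genes whose values are given later. They are written 5′ to 3′ along the gene's strand, with the motif in capitals, which reads CACGTGAC where it lies on the opposite strand.
Mcoln1, chr8:3500435-3500464, + strand, motif starting at -73 from the gene start: gggtcgcgcttGTCACGTGttcagttcagg
Mcoln1, chr8:3500463-3500492, + strand, motif starting at -45: ggcgccccgctCACGTGACcgcggcgcatg
Lamp1, chr8:13159122-13159151, + strand, motif starting at -28: atgccgactggCACGTGACcacatcacgtg
Ctsa, chr2:164833748-164833777, + strand, motif starting at -14: atgagcaaactGTCACGTGatgcagatgct
Glb1, chr9:114401017-114401046, + strand, motif starting at -50: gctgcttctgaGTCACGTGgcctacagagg
Naglu, chr11:101070008-101070037, + strand, motif starting at -75: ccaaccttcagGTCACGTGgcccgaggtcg
Atp6v0d1, chr8:105566051-105566080, - strand, motif starting at -5: gccctactgcgGTCACGTGagacgcggtgc

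The other genes with GTCACGTG were Atg7, Ctsd, Gla and Sgsh, and Mcoln1, Ctsa and Ctsd held it at more than 1 place. Of the 10, 9 rose in each colony comparison: Gla was not called in RT101 and Glb1 not in bFGF-JB6. Their median changes were 0.57 in RT101 and 0.68 in bFGF-JB6. Of the 26 with a promoter but without GTCACGTG, 16 rose in RT101 and 18 in bFGF-JB6, with medians of 0.50 and 0.56. Over all genes, 17.0% rose in RT101 and 14.1% in bFGF-JB6. The difference between these sets was not tested, and a match of letters is a description, not a binding site.

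Of the 24 soluble lumenal proteins, 17 rose in RT101 colonies (median change 0.65) and 16 in bFGF-JB6 colonies (median 0.54). Over all genes, 17.0% rose in RT101 colonies and 14.1% in bFGF-JB6 colonies. Ppt1, palmitoyl-protein thioesterase, which strips fatty acids from proteins, read 9.42, 9.30 and 9.37 in RT101 colonies and 8.12 and 8.26 in RT101 monolayer. It read 9.35, 9.15 and 9.46 in bFGF-JB6 colonies and 9.33, 9.39 and 9.35 in bFGF-JB6 monolayer. The RT101 monolayer arrays were thus the low ones, and the other 3 groups overlapped. Its change was 1.17 in RT101 (2.25-fold, SE 0.10, adjusted p = 1.11e-06) and -0.04 in bFGF-JB6 (adjusted p = 0.817), and these changes differed by 1.21 (adjusted p = 1.76e-05).

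Npc2, a carrier that binds cholesterol in the lumen, and Ctsl, the cysteine protease cathepsin L that transformed mouse fibroblasts are known to secrete, also rose by the RT101 call alone. Npc2 read 12.18, 12.15 and 12.22 in RT101 colonies, 11.54 and 11.41 in RT101 monolayer, 12.31, 12.41 and 12.49 in bFGF-JB6 colonies, and 12.38, 12.40 and 12.31 in bFGF-JB6 monolayer. Ctsl read 13.35, 13.35 and 13.41 in RT101 colonies, 12.93 and 12.97 in RT101 monolayer, 13.77, 13.72 and 13.74 in bFGF-JB6 colonies, and 13.69, 13.76 and 13.73 in bFGF-JB6 monolayer. For both genes the RT101 arrays separated by growth state, the bFGF-JB6 arrays overlapped, and every RT101 array lay below every bFGF-JB6 array, unlike Ppt1. Npc2 rose by 0.71 in RT101 and had a change of 0.04 in bFGF-JB6 (adjusted p = 0.754), a difference of 0.67 (adjusted p = 0.000913). Ctsl rose by 0.42 in RT101 and had a change of 0.02 in bFGF-JB6 (adjusted p = 0.906). The difference for Ctsl was 0.40 (adjusted p = 0.0128), and without RT101 monolayer replicate 1 it was not called (adjusted p = 0.0543). With cyclic loess it was 0.27 and was not called either (adjusted p = 0.0769).

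Asah1, acid ceramidase, and Gusb, beta-glucuronidase, rose in both lines and rose more in RT101. Asah1 rose by 0.94 in RT101 and by 0.50 in bFGF-JB6, a difference of 0.44 (adjusted p = 0.0154). Gusb rose by 0.71 in RT101 and by 0.29 in bFGF-JB6, a difference of 0.42 (adjusted p = 0.0171). Without RT101 monolayer replicate 2 neither difference was called (adjusted p = 0.0839 for Asah1 and 0.0623 for Gusb). The bFGF-JB6 rise of Gusb itself (adjusted p = 0.0144) was lost without bFGF-JB6 monolayer replicate 2 (adjusted p = 0.0593) or bFGF-JB6 colonies replicate 2 (adjusted p = 0.0560).

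Neu1, Ctsa and Glb1 encode sialidase, the protective protein cathepsin A and beta-galactosidase, which form a complex in the lysosome. Glb1 read 8.93, 9.01 and 8.90 in RT101 colonies, 8.34 and 8.28 in RT101 monolayer, 7.28, 7.37 and 7.37 in bFGF-JB6 colonies, and 7.44, 7.24 and 7.43 in bFGF-JB6 monolayer. It was high in RT101, highest in RT101 colonies, and overlapped between the bFGF-JB6 groups. Glb1 rose by 0.64 in RT101 colonies (adjusted p = 0.000114) and had a change of -0.03 in bFGF-JB6 (adjusted p = 0.844), a difference of 0.66 (adjusted p = 0.00118). Its partners rose in both lines, Neu1 by 0.83 in RT101 and 1.01 in bFGF-JB6, and Ctsa by 0.93 and 0.52. The difference between lines was -0.19 for Neu1 (adjusted p = 0.428) and 0.41 for Ctsa (adjusted p = 0.0562), which was called without bFGF-JB6 colonies replicate 1 (adjusted p = 0.0235) or RT101 monolayer replicate 2 (adjusted p = 0.0488). The 2 weaker probe sets of Neu1 were not called in either colony comparison.

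Of the remaining glycan and glycogen hydrolases, Naglu, Sgsh and Gaa rose in both lines and Gla in bFGF-JB6 alone by these calls. Naglu and Sgsh act in the breakdown of heparan sulfate. Naglu read 7.81, 7.81 and 7.78 in RT101 colonies, 6.68 and 6.95 in RT101 monolayer, 9.15, 9.11 and 8.89 in bFGF-JB6 colonies, and 7.90, 7.68 and 7.86 in bFGF-JB6 monolayer. Colony arrays lay above monolayer arrays of their line without overlap, by 0.99 in RT101 (adjusted p = 1.25e-05) and 1.24 in bFGF-JB6 (adjusted p = 7.24e-07). Sgsh rose by 0.50 and 0.56, and the RT101 rise (adjusted p = 0.00488) was lost without RT101 monolayer replicate 2 (adjusted p = 0.0623). Gaa, acid alpha-glucosidase, which digests glycogen, read 9.85, 9.82 and 9.71 in RT101 colonies, 8.81 and 8.89 in RT101 monolayer, 10.38, 10.63 and 9.98 in bFGF-JB6 colonies, and 9.06, 8.73 and 8.75 in bFGF-JB6 monolayer. It rose by 0.94 in RT101 and by 1.48 in bFGF-JB6, with the lowest bFGF-JB6 colony value on the array with the raised 3' signal. The difference between lines was -0.54 (adjusted p = 0.0798), and it was called without that array (-0.72, adjusted p = 0.00496) or without bFGF-JB6 monolayer replicate 1 (adjusted p = 0.0421). Gla, alpha-galactosidase A, rose by 0.66 in bFGF-JB6 and had a change of 0.17 in RT101 (adjusted p = 0.308), although its weaker probe set rose in both, by 0.69 in RT101.

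Lipid enzymes and their helper rose in both lines. Hexa, the alpha subunit of beta-hexosaminidase, which cleaves gangliosides, rose by 0.53 in RT101 and 1.01 in bFGF-JB6. Lipa, lysosomal acid lipase, rose by 0.53 and 1.02 in the same order. Psap, the precursor of the saposin activators, rose by 0.78 and 0.82. The difference between lines was called for Hexa (-0.48, adjusted p = 0.0338), Lipa (-0.48, adjusted p = 0.0214) and Gla (-0.50, adjusted p = 0.0265). All 3 calls lay near the threshold, and each was lost on leaving out any 1 of several arrays. That of Hexa was also lost when the replicate numbers of the titles entered the model (adjusted p = 0.0574). That of Hexa was lost without RT101 colonies replicate 1 or 3, RT101 monolayer replicate 1 or 2, bFGF-JB6 colonies replicate 2, or bFGF-JB6 monolayer replicate 2 or 3 (adjusted p = 0.0544 to 0.114). That of Lipa was lost without RT101 colonies replicate 2, RT101 monolayer replicate 1 or 2, or bFGF-JB6 monolayer replicate 2 (adjusted p = 0.0543 to 0.0726). That of Gla was lost without RT101 colonies replicate 2, RT101 monolayer replicate 1 or 2, bFGF-JB6 colonies replicate 1, or bFGF-JB6 monolayer replicate 1 (adjusted p = 0.0515 to 0.0978). Tpp1, tripeptidyl peptidase, rose by 0.66 and 0.70.

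The cathepsins, the lysosomal proteases, split into several behaviours. Of the 10 cathepsin genes, 4 rose in RT101 and 5 in bFGF-JB6, where 17.0% and 14.1% of all genes rose. Ctsb and Ctsd, the widely expressed cysteine and aspartic proteases cathepsin B and D, rose by 0.80 each in RT101, and by 0.62 and 0.69 in bFGF-JB6. All 3 weaker probe sets of Ctsb rose in both lines, by 0.98 to 1.70 in RT101 and 0.60 to 1.16 in bFGF-JB6.

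Ctsk, cathepsin K, a collagen-cutting protease best known from osteoclasts, had the widest change of the set in a colony comparison. It read 4.37, 4.31 and 4.61 in RT101 colonies, 4.36 and 4.22 in RT101 monolayer, 6.93, 6.90 and 7.09 in bFGF-JB6 colonies, and 4.58, 4.60 and 4.45 in bFGF-JB6 monolayer. Only the bFGF-JB6 colony arrays were high, and the RT101 groups overlapped. It rose 5.38-fold in bFGF-JB6 colonies (2.43, SE 0.10, adjusted p = 8.71e-10) and had a change of 0.14 in RT101 (adjusted p = 0.388). The difference between the lines was -2.29 (adjusted p = 1.09e-07).

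Ctsh and Ctsz, cathepsins H and Z, separated the lines far more than the growth states. Ctsh read 3.49, 3.15 and 3.38 in RT101 colonies, 3.26 and 3.38 in RT101 monolayer, 8.47, 8.32 and 8.43 in bFGF-JB6 colonies, and 8.36, 8.23 and 8.33 in bFGF-JB6 monolayer. Ctsz read 3.65, 3.93 and 3.79 in RT101 colonies, 3.70 and 3.60 in RT101 monolayer, 10.12, 9.95 and 9.76 in bFGF-JB6 colonies, and 9.51, 9.46 and 9.51 in bFGF-JB6 monolayer. Every RT101 array lay near the bottom of the scale for both genes, and every bFGF-JB6 array far above it. In RT101, Ctsh was 33.6-fold lower in colonies and 31.8-fold lower in monolayer than in bFGF-JB6, and Ctsz 71.2-fold and 57.5-fold lower, with folds compressed at that end (adjusted p at most 4.36e-13). The 2 other probe sets of Ctsz differed by -7.76 and -4.93 in monolayer on the log2 scale. Within bFGF-JB6, Ctsz rose by 0.45 in colonies (adjusted p = 0.00478) and Ctsh had a change of 0.10 (adjusted p = 0.505).

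Ctsc and Ctss, the dipeptidyl peptidase cathepsin C and the antigen-processing cathepsin S, lay near the bottom of the scale on all 11 arrays, between 2.55 and 3.04. Ctsf, cathepsin F, read 3.47 to 4.00. None of these 3 was called in any comparison.

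**Figure D2:**
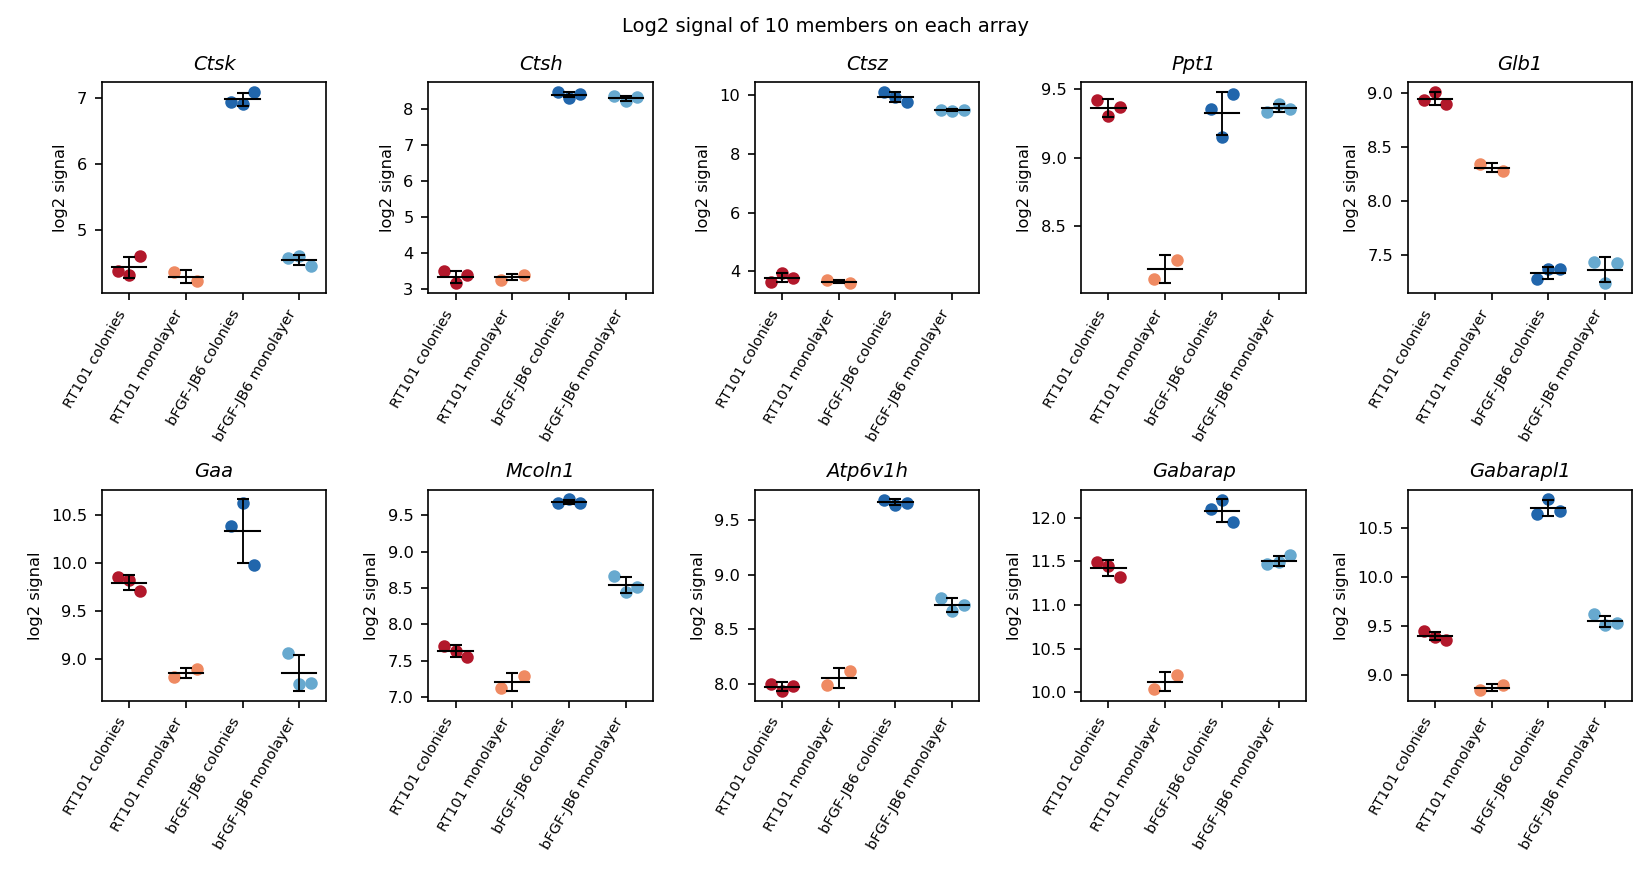
Log2 signal of 10 of the genes in the 4 groups, with a point per array, a line at the group mean and a bar of 1 SD. Ctsk is high in bFGF-JB6 colonies alone, Ctsh and Ctsz separate the lines, Ppt1 is low in RT101 monolayer alone, and Glb1 is higher in RT101.

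The 5 membrane proteins all rose in bFGF-JB6 colonies (median 0.78), and 4 of them rose in RT101 (median 0.43). Over all genes, 14.1% rose in bFGF-JB6 and 17.0% in RT101. Lamp1 and Lamp2 encode the most abundant glycoproteins of the lysosomal wall. Lamp1 rose by 0.39 in RT101 and 0.72 in bFGF-JB6, and Lamp2 by 0.84 and 0.78. The Lamp1 rise in RT101 (adjusted p = 0.00571) was lost without RT101 monolayer replicate 2 (adjusted p = 0.0631).

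Mcoln1, the mucolipin channel that releases calcium from lysosomes, read 7.71, 7.63 and 7.55 in RT101 colonies, 7.12 and 7.29 in RT101 monolayer, 9.67, 9.72 and 9.67 in bFGF-JB6 colonies, and 8.66, 8.45 and 8.51 in bFGF-JB6 monolayer. The 4 groups did not overlap. Mcoln1 rose by 0.43 in RT101 (adjusted p = 0.00374, and 0.0636 without RT101 monolayer replicate 1) and by 1.14 in bFGF-JB6 (2.21-fold, adjusted p = 4.26e-07). Its change was smaller in RT101 by 0.72 (difference -0.72, adjusted p = 0.000973).

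Npc1, which exports cholesterol from the lysosome and works with Npc2, had a pattern unlike that of its partner. It read 5.72, 5.72 and 5.81 in RT101 colonies, 5.68 and 5.89 in RT101 monolayer, 7.27, 7.25 and 7.24 in bFGF-JB6 colonies, and 6.66, 6.62 and 6.62 in bFGF-JB6 monolayer. The RT101 groups overlapped and the bFGF-JB6 groups did not. Npc1 had a change of -0.03 in RT101 (adjusted p = 0.851) and rose by 0.62 in bFGF-JB6 (adjusted p = 4.95e-05), a difference of -0.65 (adjusted p = 0.000984), where Npc2 had risen in RT101 alone. Scarb2, the receptor that brings glucocerebrosidase to lysosomes, rose by 0.48 in RT101 and 1.02 in bFGF-JB6, a difference of -0.54 (adjusted p = 0.00854). Its weaker probe set was called lower in RT101 colonies (-0.40, adjusted p = 0.00729), so the RT101 direction of Scarb2 depends on the probe set.

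Of the 5 proton pump genes 3 rose in RT101 (median 0.48) and 4 in bFGF-JB6 (median 0.61), where 17.0% and 14.1% of all genes rose. The V-ATPase has a membrane sector (V0) that passes protons and a peripheral sector (V1) that splits ATP. Atp6v0d1, of the membrane sector, rose by 0.80 and 0.61, and the accessory subunit Atp6ap1 by 0.48 and 0.69. Atp6v0a1, also of the membrane sector, rose by 0.80 in RT101 (adjusted p = 0.00572, and 0.0526 without RT101 monolayer replicate 1). In bFGF-JB6 it read 8.92, 9.05 and 8.22 in colonies and 8.54, 8.18 and 8.43 in monolayer, and these groups overlapped through colonies replicate 3, the array with the raised 3' signal. Its bFGF-JB6 change was 0.34 (adjusted p = 0.17) with that array and was called without it (adjusted p = 0.00146). Atp6v1a, the catalytic subunit, rose by 0.43 in bFGF-JB6 and had a change of 0.24 in RT101 (adjusted p = 0.0602), which was called without bFGF-JB6 colonies replicate 3 (adjusted p = 0.0476) or bFGF-JB6 monolayer replicate 1 (adjusted p = 0.037).

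Atp6v1h, a regulatory subunit of the peripheral sector, had another pattern. It read 8.00, 7.93 and 7.98 in RT101 colonies, 7.99 and 8.12 in RT101 monolayer, 9.69, 9.64 and 9.66 in bFGF-JB6 colonies, and 8.79, 8.67 and 8.72 in bFGF-JB6 monolayer. The RT101 groups overlapped, and the bFGF-JB6 colonies stood above every other array. The change was -0.08 in RT101 (adjusted p = 0.549) and 0.94 in bFGF-JB6 (adjusted p = 8.46e-07), a difference of -1.02 (SE 0.12, adjusted p = 1.7e-05).

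Of the 8 autophagy genes, 3 rose in RT101 (median 0.21) and 6 in bFGF-JB6 (median 0.56), where 17.0% and 14.1% of all genes rose. Gabarap and Gabarapl1 are ubiquitin-like proteins that are coupled to autophagosome membranes, and they moved by different amounts in the 2 lines. Gabarap read 11.49, 11.45 and 11.32 in RT101 colonies, 10.04 and 10.20 in RT101 monolayer, 12.10, 12.20 and 11.95 in bFGF-JB6 colonies, and 11.47, 11.49 and 11.57 in bFGF-JB6 monolayer. RT101 monolayer was the low group, and the RT101 colonies reached the range of bFGF-JB6 monolayer. Gabarap rose by 1.30 in RT101 (2.47-fold, adjusted p = 3.7e-07) and 0.58 in bFGF-JB6, a difference of 0.73 (adjusted p = 0.0012).

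Gabarapl1 read 9.45, 9.39 and 9.36 in RT101 colonies, 8.85 and 8.90 in RT101 monolayer, 10.64, 10.79 and 10.67 in bFGF-JB6 colonies, and 9.62, 9.51 and 9.53 in bFGF-JB6 monolayer. No 2 groups overlapped. Gabarapl1 rose by 0.52 in RT101 and 1.15 in bFGF-JB6 (2.21-fold, adjusted p = 1.5e-07), a difference of -0.62 (adjusted p = 0.00124), opposite in sign to that of Gabarap.

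Sqstm1, the receptor p62 that carries ubiquitinated cargo into autophagosomes, read 12.02, 11.98 and 11.90 in RT101 colonies, 12.23 and 12.30 in RT101 monolayer, 13.11, 13.09 and 12.58 in bFGF-JB6 colonies, and 12.33, 12.34 and 12.48 in bFGF-JB6 monolayer. RT101 colonies lay below RT101 monolayer, and bFGF-JB6 colonies above bFGF-JB6 monolayer. The RT101 change of -0.30 did not pass (adjusted p = 0.127), and it was called without bFGF-JB6 colonies replicate 3 (adjusted p = 0.0133), which read lowest of its group. It was also called with median centring (adjusted p = 0.0472), array weights (0.0309) and a fit of the RT101 groups alone (0.0184). In each of these settings 1 of the 42 genes, not 0, was called lower in RT101 colonies. Sqstm1 rose by 0.54 in bFGF-JB6 (adjusted p = 0.0045), and the changes differed by -0.84 (adjusted p = 0.0038).

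Atg5 and Atg7 belong to the machinery that couples such proteins to membranes. Atg5 read 7.07, 7.34 and 7.31 in RT101 colonies, 7.23 and 7.23 in RT101 monolayer, 8.10, 7.77 and 7.90 in bFGF-JB6 colonies, and 6.82, 6.84 and 6.79 in bFGF-JB6 monolayer. Only the bFGF-JB6 groups separated by growth state. Atg5 rose by 1.11 in bFGF-JB6 (adjusted p = 1.96e-06) and had a change of 0.01 in RT101, a difference of -1.10 (adjusted p = 8.88e-05). Its 2 weaker probe sets had changes of 0.25 and 0.32 in bFGF-JB6 and were not called (adjusted p = 0.106 and 0.0869). Atg7 rose by 0.72 in bFGF-JB6 and by 0.37 in RT101 (adjusted p = 0.0299), a call lost without any 1 of the 5 RT101 arrays (adjusted p = 0.0538 to 0.142).

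Tfeb, the factor that binds CLEAR elements, read 6.22, 6.20 and 6.27 in RT101 colonies, 6.12 and 6.01 in RT101 monolayer, 6.44, 6.45 and 6.38 in bFGF-JB6 colonies, and 6.02, 6.19 and 6.0 in bFGF-JB6 monolayer. Colony arrays lay above monolayer arrays in both lines. Tfeb rose by 0.35 in bFGF-JB6 (adjusted p = 0.00435) and had a change of 0.16 in RT101 (adjusted p = 0.202). Becn1, part of the lipid kinase complex that starts autophagosomes, had changes of -0.16 in RT101 and 0.15 in bFGF-JB6 (adjusted p = 0.269 and 0.251). Ulk1, the kinase that initiates autophagy, had changes of 0.25 and 0.27 (adjusted p = 0.217 and 0.131). The bFGF-JB6 change of Ulk1 was called without bFGF-JB6 monolayer replicate 1 (adjusted p = 0.0261).

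**Figure D3:**
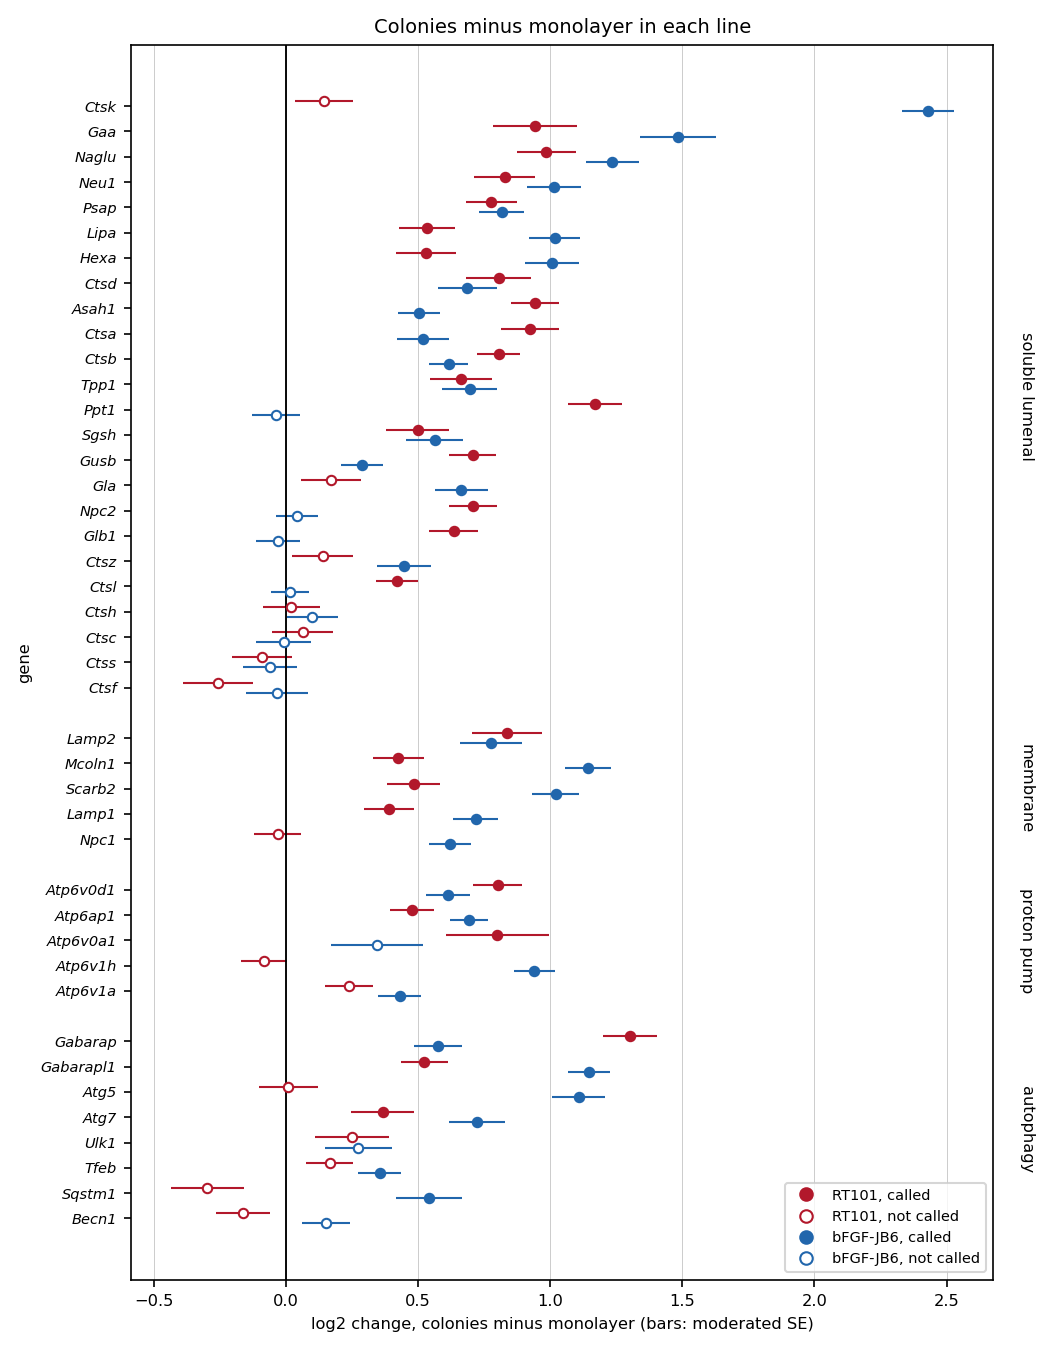
Log2 change of each of the 42 genes in colonies relative to monolayer, in RT101 and in bFGF-JB6, by role. Filled symbols passed an adjusted p of 0.05 and bars are moderated standard errors. No filled symbol lies below 0 in either line, and Ctsk in bFGF-JB6 has the largest change at 2.43.

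The change in RT101 differed from that in bFGF-JB6 for 18 of the 42 genes, 7 higher and 11 lower in RT101, where 15.0% and 12.7% of all genes were called higher and lower. This contrast uses all 4 groups and so shares arrays with each comparison above. Of the soluble lumenal proteins 6 were higher and 4 lower, and of the other 18 genes 1 was higher (Gabarap) and 7 lower. The lumenal group had 6 calls, not 10, without RT101 monolayer replicate 1, and also 6 without RT101 monolayer replicate 2. The plot of colony changes by gene shows the same genes side by side.

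Between the lines, the set stood lower in RT101. In monolayer, 29 of 42 genes were lower and 2 higher in RT101 than in bFGF-JB6, where 21.2% of all genes were lower and 23.2% higher. In colonies, 35 of 42 were lower and 1 higher, where 20.7% of all genes were lower and 22.7% higher. The median difference of the 42 was -0.82 in monolayer and -0.89 in colonies, against 0.05 and 0.00 for all genes. At least 2-fold lower were 13 genes in monolayer and 19 in colonies, where 6.92% and 4.98% of all genes were.

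**Figure D4:**
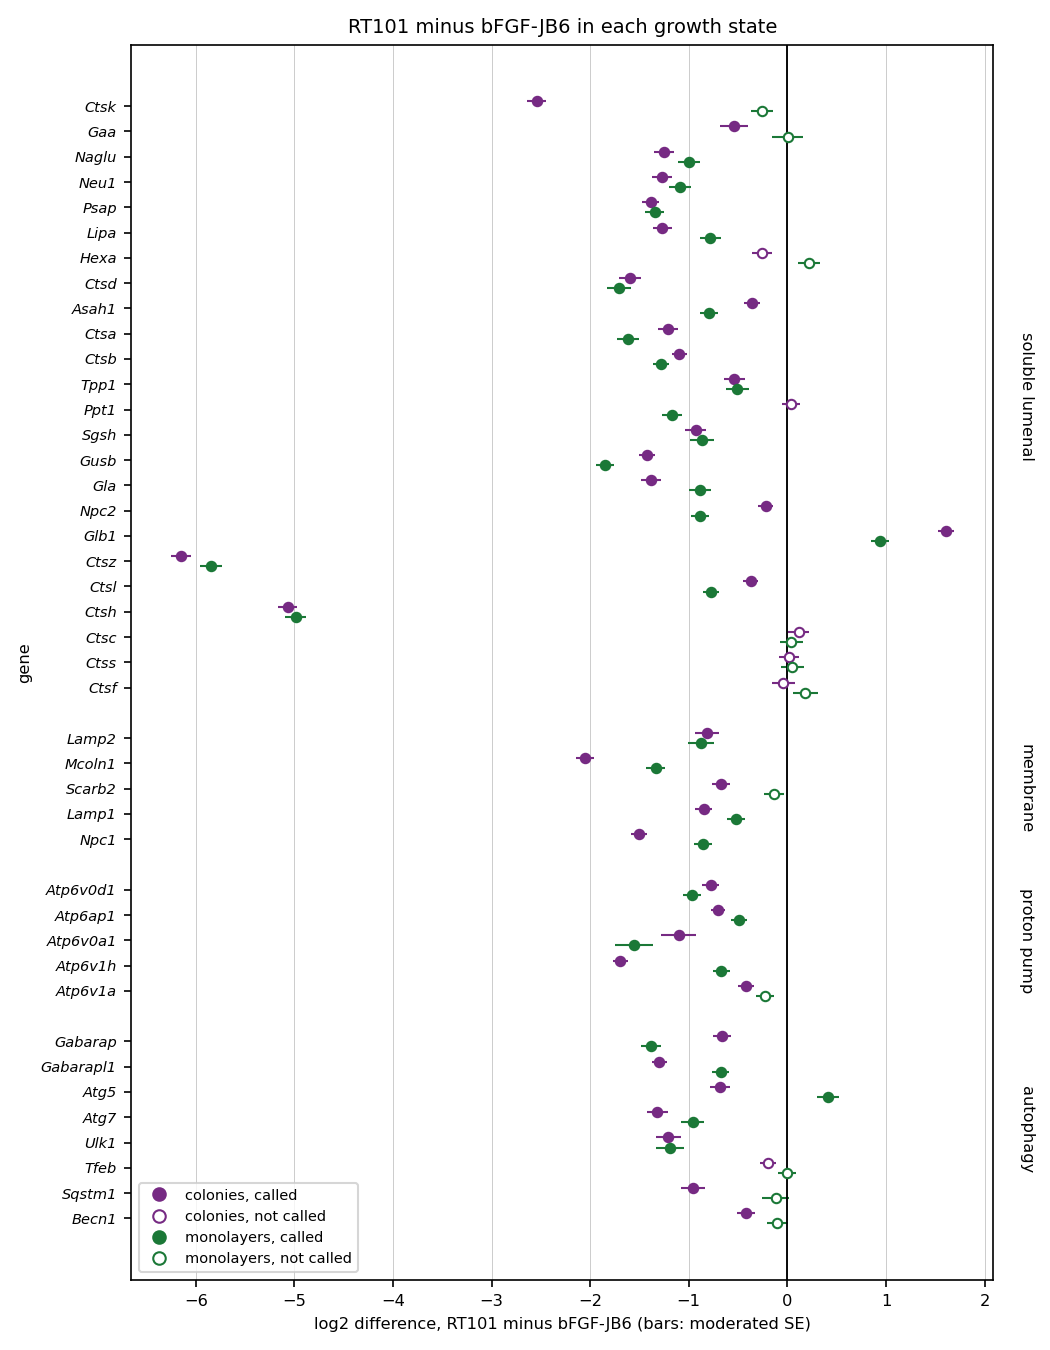
Log2 difference of RT101 from bFGF-JB6 for each of the 42 genes, in colonies and in monolayers, with filled symbols for an adjusted p under 0.05 and bars of moderated standard error. Nearly all filled symbols lie below 0, Ctsz and Ctsh lie farthest out at -6.15 and -5.07 in colonies, and Glb1 alone has filled symbols above 0 in both.

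Glb1 was the single gene higher in RT101 in both growth states, by 1.61 in colonies (3.04-fold, adjusted p = 2.79e-09) and 0.94 in monolayer (adjusted p = 1.56e-06). Its partners were lower in RT101, Ctsa by 1.21 in colonies (difference -1.21) and 1.62 in monolayer (difference -1.62), and Neu1 with differences of -1.27 and -1.09. The plot of differences between lines shows Glb1 apart from the rest. Atg5 was the other gene higher in RT101 monolayer (0.42, adjusted p = 0.00711), and it was lower in RT101 colonies (-0.68, adjusted p = 6.41e-05). Its 2 weaker probe sets were not called in monolayer and were lower in colonies, by -0.41 and -0.50.

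After Ctsz, Ctsh and Ctsk, the genes lowest in RT101 colonies relative to bFGF-JB6 colonies were Mcoln1 (-2.05, 4.15-fold lower in RT101, adjusted p = 3.9e-10), Atp6v1h (-1.69) and Ctsd (-1.59). In monolayer, after Ctsz and Ctsh, they were Gusb (-1.85, 3.60-fold lower, adjusted p = 1.31e-09), Ctsd (-1.71) and Ctsa (-1.62). Among lipid genes Psap differed by -1.39 in colonies and -1.35 in monolayer, and Npc1 by -1.51 and -0.85. Of the autophagy genes 7 of 8 were lower in RT101 colonies and 4 of 8 in RT101 monolayer, where 20.7% and 21.2% of all genes were lower. Ulk1, which the colony comparisons did not call, differed by -1.21 in colonies and -1.19 in monolayer.

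For some genes a difference between the lines was called in 1 growth state. It was called in monolayer alone for Ppt1, and in colonies alone for Gaa, Ctsk, Scarb2, Atp6v1a, Sqstm1 and Becn1. The monolayer difference of Atp6v1a just missed the threshold (-0.23, adjusted p = 0.0547). Some other settings called it, among them array weights (adjusted p = 0.0187), cyclic loess (0.038) and averaged probe sets (0.0129). Ctsk in monolayer (adjusted p = 0.0769) was called with cyclic loess (adjusted p = 0.0218). Becn1 in monolayer (adjusted p = 0.478) was called with averaged probe sets (adjusted p = 0.0276). Ppt1 was lower in RT101 monolayer (-1.17, adjusted p = 4.9e-07), and its difference in colonies was 0.04 (adjusted p = 0.791). Gaa differed by 0.00 in monolayer (adjusted p = 0.989) and by -0.54 in colonies (adjusted p = 0.00696). Npc2 differed by -0.89 in monolayer and by -0.22 in colonies, and the colony call (adjusted p = 0.0389) was lost without any 1 of the 3 RT101 colony arrays, bFGF-JB6 colonies replicate 2 or 3, or bFGF-JB6 monolayer replicate 2 or 3 (adjusted p = 0.0501 to 0.122). Tpp1 differed in both growth states, by -0.54 in colonies (adjusted p = 0.000749) and by -0.51 in monolayer (adjusted p = 0.00273), and the monolayer call was lost without RT101 monolayer replicate 2 (adjusted p = 0.0542).

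Probe sets of a gene mostly gave the same call. Among the 22 genes with several, all sets had the same call for 15 in each colony comparison, 13 for the difference between them, 15 in monolayer and 18 in colonies between the lines. Opposite calls occurred for Scarb2 alone, in the RT101 colony comparison.

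Other genes of the same pathways, listed apart from the 42, rose more often than they fell in colonies. Over all genes, 17.0% rose and 15.4% fell in RT101, and 14.1% rose and 15.3% fell in bFGF-JB6. Of 19 measured genes of other hydrolases and their activators, 11 rose and 1 fell in RT101 (median 0.57). In bFGF-JB6 14 of them rose and 0 fell (median 0.50). The largest were Dpp7, a dipeptidyl peptidase (1.19 in RT101 and 1.07 in bFGF-JB6), Arsa, arylsulfatase A (1.14 and 0.96), Sumf1, which activates sulfatases (1.12 in RT101), and Lgmn, the protease legumain (1.05 in bFGF-JB6). Naaa, an acid amidase, fell by 1.25 in RT101. Of 13 other V-ATPase genes, 9 rose and 1 fell in RT101, and 10 rose and 0 fell in bFGF-JB6. They were led by Atp6v0e2 (1.31), Atp6v1e1 (0.91) and Tcirg1 (0.72) in RT101 and by Atp6v0b (0.90), Atp6v1g1 (0.76) and Atp6ap2 (0.68) in bFGF-JB6.

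Of 13 other membrane proteins 5 rose and 1 fell in RT101, and 6 rose and 1 fell in bFGF-JB6. The channel gene Tpcn1 rose by 1.10 in RT101, and Ctns, the cystine exporter, by 1.09 in bFGF-JB6. Hgsnat, an acetyltransferase of heparan sulfate breakdown, fell by 0.76 in RT101. Among 3 cathepsin inhibitors measured, 2 rose in RT101 and 1 in bFGF-JB6, and 0 fell, with medians of 0.52 and 0.02. Cst3, the secreted cathepsin inhibitor cystatin C, rose by 1.02 in RT101 and 1.04 in bFGF-JB6.

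Of 26 other autophagy genes 8 rose and 3 fell in RT101, and 8 rose and 1 fell in bFGF-JB6, with medians of 0.23 and 0.18. Atg10 (0.91) and the LC3 genes Map1lc3a (0.75) and Map1lc3b (0.68) rose in RT101, Rb1cc1, a partner of Ulk1, fell by 0.53 there, and Bnip3, a mitophagy receptor, rose by 0.78 in bFGF-JB6. Of 15 genes of nutrient sensing at the lysosome 4 rose and 1 fell in RT101, and 6 rose and 0 fell in bFGF-JB6, with Lamtor4, of the complex that anchors the mTORC1 regulators, at 0.99 and 0.78. Of 9 genes of delivery to lysosomes 1 rose in RT101 (11.1%, below the 17.0% of all genes) and 3 in bFGF-JB6, and 0 fell. Their median changes were 0.04 and 0.26. Without RT101 monolayer replicate 1, the calls in RT101 were 3 for the membrane proteins, 5 for autophagy and 3 for nutrient sensing. Nutrient sensing also had 3 without RT101 monolayer replicate 2 or RT101 colonies replicate 2. The delivery count was 0 without RT101 monolayer replicate 2, RT101 colonies replicate 1 or RT101 colonies replicate 3.

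**Figure D5:**
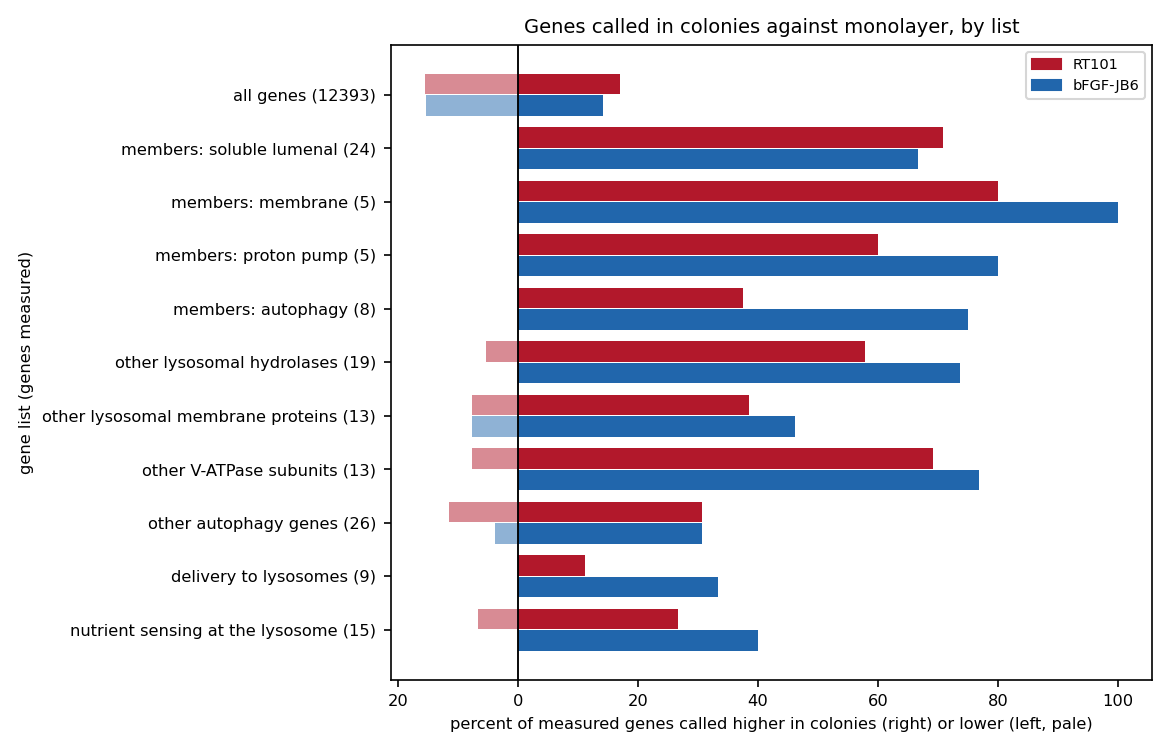
Percent of the measured genes of each role and of each other pathway list called in colonies relative to monolayer, in RT101 and in bFGF-JB6, with genes that rose to the right and genes that fell to the left. All genes are shown for comparison, at 17.0% up and 15.4% down in RT101 and 14.1% up and 15.3% down in bFGF-JB6.

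Macrophages are rich in lysosomes, so their markers were read beside the set. Of 16 measured markers 6, among them Ptprc and Adgre1, lay at or below the lower quartile on all 11 arrays, with group means of Ptprc between 2.34 and 2.53. In bFGF-JB6 colonies 4 of the 16 rose and 1 fell, where 14.1% of all genes rose and 15.3% fell. In RT101 colonies 2 of the 16 rose and 0 fell, where 17.0% of all genes rose and 15.4% fell. The median change of the 16 was 0.06 in bFGF-JB6 and -0.005 in RT101. Cd68, itself a lysosomal glycoprotein of the LAMP family, read 8.24 to 8.39 in bFGF-JB6 colonies and 6.35 to 6.60 in bFGF-JB6 monolayer, and 3.41 to 3.64 and 3.66 to 3.83 in RT101 colonies and monolayer. Csf1r, the receptor for a macrophage growth factor, rose by 0.92 in bFGF-JB6. The summed linear signal of the 16 markers was 462 to 485 in RT101 colonies, 417 to 435 in RT101 monolayer, 974 to 1012 in bFGF-JB6 colonies and 732 to 744 in bFGF-JB6 monolayer. The sum of the 16 moved with line and growth state as the set did. Without Cd68 and Cd14, the other 14 markers summed to 258 to 278 in RT101 colonies and 241 to 269 in RT101 monolayer. In bFGF-JB6 they summed to 250 to 304 in colonies and 231 to 252 in monolayer. Most of the movement of the sum of 16 thus lay in Cd68 and Cd14. Of the 14 left, 6 lay at or below the lower quartile on all 11 arrays, so their sum says little about macrophages. The part of these markers in the results was not tested.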

How the data were processed

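Biotin-labelled total RNA was hybridised to Affymetrix arrays, 1 sample on each, giving 11 arrays of 4 groups named in the submitters' titles. The values are deposited log2 signals, 1 for each probe set, which the authors computed with RMA according to the submitters' processing notes (no version given). RMA removes background, equalises the distributions of the arrays and condenses probes into probe sets, without detection calls. No filter or further scaling was applied. Array signals rest on no counts, so precision is limited by how many arrays there are.

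The platform annotation gave 20380 of 22690 probe sets a single gene symbol, 691 several and 1555 none, and 64 were controls. By gene number, 20351 of the 20380 matched the reference gene table. For each of the 12393 genes the brightest probe set naming it alone was used. Such probe sets can still read near-identical relatives.

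Linear models in limma 3.58.1 (R 4.3.3) used every array, with group as the only term. The eBayes moderation had 7 residual degrees of freedom and 6.12 from the prior. Tests were two-sided and adjusted by Benjamini-Hochberg over 12393 genes, with calls at 0.05. A gene set was described by its counts and median beside those of all genes, with no test of the set. Every gene of the set was named, and from other lists up to 3 called genes per direction and colony comparison with the largest change, and defining markers. Members and lists were chosen with earlier results of these data known. On simulated data of 12393 genes with 200 changed, the RT101 colony comparison recovered 49% of changes of 0.5 and 93% of changes of 1, and the bFGF-JB6 one 71% and 99%. Alternatives were replicate blocks, averaged or separate probe sets, a filter at the median level, cyclic loess, centring on medians, array weights, a robust trended variance, a fit of the compared groups alone, a 2-fold minimum, and leaving out each array or the 2 arrays of raised 3' signal. Plots used matplotlib 3.10.9 (Python 3.11.15).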

Additional observations from a re-analysis of the deposited data

Results flagged for a closer look

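These 18 genes stood out because their change in RT101 colonies differed from that in bFGF-JB6 colonies by a test of the difference itself (limma, adjusted over all genes). Each value is the RT101 change minus the bFGF-JB6 change on the log2 scale. It was positive for Ppt1 (1.21), Gabarap (0.73), Npc2 (0.67), Glb1 (0.66), Asah1 (0.44), Gusb (0.42) and Ctsl (0.40). It was negative for Ctsk (-2.29), Atg5 (-1.10), Atp6v1h (-1.02), Sqstm1 (-0.84), Mcoln1 (-0.72), Npc1 (-0.65), Gabarapl1 (-0.62), Scarb2 (-0.54), Gla (-0.50), Hexa (-0.48) and Lipa (-0.48). The cause of these differences was not tested.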

How the results depend on the processing

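For the brightest probe set, or the mean of probe sets, no called change of the 42 genes turned its sign under the alternatives tried in the 5 comparisons. Tested separately, the weaker probe set of Scarb2 was called lower in RT101 colonies (-0.40, adjusted p = 0.00729). The number called ran, over single arrays left out, from 24 to 29 for RT101 colonies (27 with all arrays), 30 to 32 for bFGF-JB6 colonies (31), 14 to 21 for the difference between them (18), 30 to 32 for monolayers between lines (31) and 35 to 37 for colonies between lines (36). Requiring a 2-fold change left 2, 10, 4, 13 and 20 in the same order, which follows from the rule itself. Cyclic loess called the difference between the colony changes for 20 genes, 6 higher and 14 lower in RT101. With probe sets of a gene averaged, that difference was called for 24 genes, 9 higher and 15 lower. Among those added were Ctsb, Ctsz, Gaa, Atg7 and Atp6v1a. In that setting Scarb2 and Atg7 were not called in RT101 colonies (adjusted p = 0.774 and 0.427). Among other genes, the same setting gave Lmbrd1 0.30 in RT101 colonies (adjusted p = 0.023) and Wipi2 -0.17 in bFGF-JB6 colonies (adjusted p = 0.318), each opposite in sign to its brightest probe set, and the cause was not tested.

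Replicate numbers in the titles and letters in the descriptions were not taken to pair the samples, since not every pair correlated: deviations of arrays sharing a number correlated at -0.336 to 0.320 (15 pairs, 5 over 0.1), and those sharing a letter at -0.276 to 0.320 (15 pairs, 8 over 0.1, median 0.111). Pairs not sharing a letter had a median of -0.044, with 8 of 30 over 0.1. The best-correlated array shared the number for 4 and the letter for 5 of the 11 arrays. With the replicate block from title numbers, 27, 31, 18, 31 and 35 genes were called in the 5 comparisons, and with that from letters 26, 31, 19, 32 and 36. The letter block ended the RT101 colony call of Atg7 (adjusted p = 0.0639). The simulation changed only 200 genes, which made its adjusted p stricter than in the data, so its recovery of small changes need not hold here. Signals near the bottom of the scale give compressed folds.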

Other observations

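Other genes of these pathways outside the 42 also stood lower in RT101 than in bFGF-JB6. Of 19 genes of other hydrolases and their activators, 15 were lower and 2 higher in RT101 colonies. In RT101 monolayer 10 of them were lower and 2 higher, with median differences of -0.42 in both. Of 13 other V-ATPase genes, 10 were lower and 1 higher in colonies, and 8 lower and 0 higher in monolayer. Of 13 other lysosomal membrane proteins, 8 were lower in colonies and 10 in monolayer, with 0 higher in either. Of 26 other autophagy genes, 14 were lower in each growth state, with 3 higher in colonies and 4 in monolayer. Over all genes, 20.7% were lower in RT101 colonies and 21.2% in RT101 monolayer (limma, adjusted p of 0.05). These counts share arrays with those of the colony comparisons.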
